A study of Mus musculus with 6 samples.

Results

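The regulators of mitochondrial biogenesis described here are 10 genes, taken by gene symbol from the 55414 genes of a table of TPM, a measure of transcript abundance that scales reads by gene length and by library so that levels can be set against each other. They are the PGC-1 coactivators Ppargc1a, Ppargc1b and Pprc1, the nuclear transcription factors Nrf1, Gabpa and Esrra, and the mitochondrial transcription genes Tfam, Tfb1m, Tfb2m and Polrmt. Each symbol matched 1 row, and all 10 passed the minimum mean of 1 TPM that 14916 genes reached. RNA came from mouse hippocampus in 6 libraries, with 3 of the CerM group and 3 of the vehicle group. What CerM stands for is not written in the labels, nor are a strain, an age, a dose or a duration. The series title names ceramides, corticosterone-induced depression and mitochondrial function. The titles call the samples biological replicates but do not say that each came from its own mouse, so the p-values rest on a spread that may be technical.

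Mitochondria carry a small genome of their own, but most of their proteins are encoded in the nucleus, so growth of the organelle needs both to be expressed together. The PGC-1 coactivators do not bind DNA themselves. They dock on transcription factors such as NRF1, GABP (also called NRF2, with Gabpa as its DNA-binding subunit) and ERR alpha (Esrra), which switch on nuclear genes of the respiratory chain and of mitochondrial transcription. Inside the organelle, TFAM packages and bends mitochondrial DNA, TFB2M opens the promoter, and POLRMT, a polymerase of phage type, makes the RNA. In the brain, PGC-1 alpha is known for its high level in parvalbumin interneurons.

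Promoter sequence shows which of these genes carry the recognition letters of the others, so the stretches that hold such letters are printed first. They are RefSeq sequences of the mouse build GRCm38.p6, an older build than the GRCm39 named in the submitters' processing notes, and serve as sequence context only. The table held 9 of the 10 genes, with 2 starts for Nrf1, and not Ppargc1b. Each window ran from 250 bases before to 50 bases after the annotated start. It was searched on both strands for the NRF1 core GCATGCG, the ETS core CCGGAAG that GABP shares with other ETS factors, and the ERR core AAGGTCA. Only exact matches were counted, so a stretch without a match may still hold a near one. Capitals mark the matches, on whichever strand they lay (for Tfb2m, the one on the gene's strand), and every line reads 5′ to 3′ on the gene's strand.

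The 90 bases before the start of Gabpa (chr16:84835034-84835123, + strand), Esrra (chr19:6921809-6921898, - strand), Tfam (chr10:71238045-71238134, - strand) and Polrmt (chr10:79746582-79746671, - strand) each held a match. The 90 bases before Tfb1m (chr17:3557756-3557845, - strand) and Ppargc1a (chr5:51567726-51567815, - strand) are shown as examples without an exact match. The Tfb1m stretch does hold a near match of the ETS core.
Gabpa: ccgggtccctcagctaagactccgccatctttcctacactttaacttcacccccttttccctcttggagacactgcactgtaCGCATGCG
Esrra: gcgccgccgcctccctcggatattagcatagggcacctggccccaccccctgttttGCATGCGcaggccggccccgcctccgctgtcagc
Tfam: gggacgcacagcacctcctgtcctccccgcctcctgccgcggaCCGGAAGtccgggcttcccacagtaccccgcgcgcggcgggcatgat
Polrmt: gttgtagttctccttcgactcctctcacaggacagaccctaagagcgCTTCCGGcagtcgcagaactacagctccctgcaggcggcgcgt
Tfb1m: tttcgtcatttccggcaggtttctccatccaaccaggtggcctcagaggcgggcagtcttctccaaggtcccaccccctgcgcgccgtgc
Ppargc1a: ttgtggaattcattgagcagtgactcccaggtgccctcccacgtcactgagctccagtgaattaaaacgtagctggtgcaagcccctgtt

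Further matches lay outside those stretches, or in Gabpa across the edge, where the first 4 bases of its stretch end an ETS core. They are shown in 30 bases each. Polrmt held an NRF1 core 132 bases before its start (chr10:79746696-79746725, - strand). Gabpa held an ETS core 93 bases before its start (chr16:84835019-84835048, + strand). Tfb2m held an NRF1 core just after its start (chr1:179546246-179546275, - strand), although the RefSeq start of Tfb2m was not found in a GENCODE transcript.
Polrmt, NRF1 core: agagtatttctgCGCATGCtctcttgccgc
Gabpa, ETS core: ggagggtaagtgCTTCCGGgtccctcagct
Tfb2m, NRF1 core: gctaggtcgttcGCATGCGccattcgtaat

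In Gabpa and Tfb2m the NRF1 core read the same way on both strands, shifted by 1 base. None of the 3 motifs overlapped another. The NRF1 core was thus in the window of 4 of the 9 genes (Gabpa, Esrra, Tfb2m and Polrmt), against 4.01% of the 27025 genes with a window in the table. The ETS core was in 3 of them (Gabpa, Tfam and Polrmt), against 9.93% of those genes. The ERR core was in none of the 9, against 5.38% of those genes. Those shares include genes that did not reach the TPM minimum. Of the 11094 tested genes with a window, 768 held an NRF1 core, 2050 an ETS core and 443 an ERR core. Ppargc1a had the fewest CpG dinucleotides of the first-listed starts, 5 in 300 bases, while Nrf1 had 43. These are matches of letters, not measurements of binding.

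The 10 regulators spanned a wide range of levels in hippocampus, and their order on the TPM scale differed most in CerM replicate 2. Over the 6 libraries Tfam was highest at a mean of 39.6 ± 2.03 TPM (SD, n = 6), followed by Esrra at 35.0 ± 3.50, Polrmt at 22.0 ± 1.89, Tfb2m at 15.2 ± 1.47 and Nrf1 at 11.3 ± 1.63. Ppargc1a stood at 8.53 ± 0.71 TPM, Gabpa at 7.52 ± 1.87, Pprc1 at 6.86 ± 2.46, Tfb1m at 5.58 ± 0.69 and Ppargc1b at 1.20 ± 0.48. The step from Esrra to Polrmt, from Polrmt to Tfb2m and from Tfb1m to Ppargc1b separated all 6 libraries of the higher gene from all 6 of the lower one. The ranges of the other 6 neighbouring pairs overlapped. Within a library the higher gene of each of those pairs led in 5 of 6 libraries. In CerM replicate 2 Esrra exceeded Tfam (39.5 against 36.4 TPM) and Nrf1 exceeded Tfb2m (13.9 against 13.6). In the same library Gabpa exceeded Ppargc1a (10.9 against 8.81) and Pprc1 exceeded Gabpa (11.5 against 10.9). The other exceptions were Ppargc1a over Nrf1 in CerM replicate 3 and Tfb1m over Pprc1 in vehicle replicate 1. The DNA-packaging gene Tfam had a mean above that of 75.1% of tested genes and Ppargc1b above that of 2.8%, next to the minimum for testing.

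**Figure D1:**
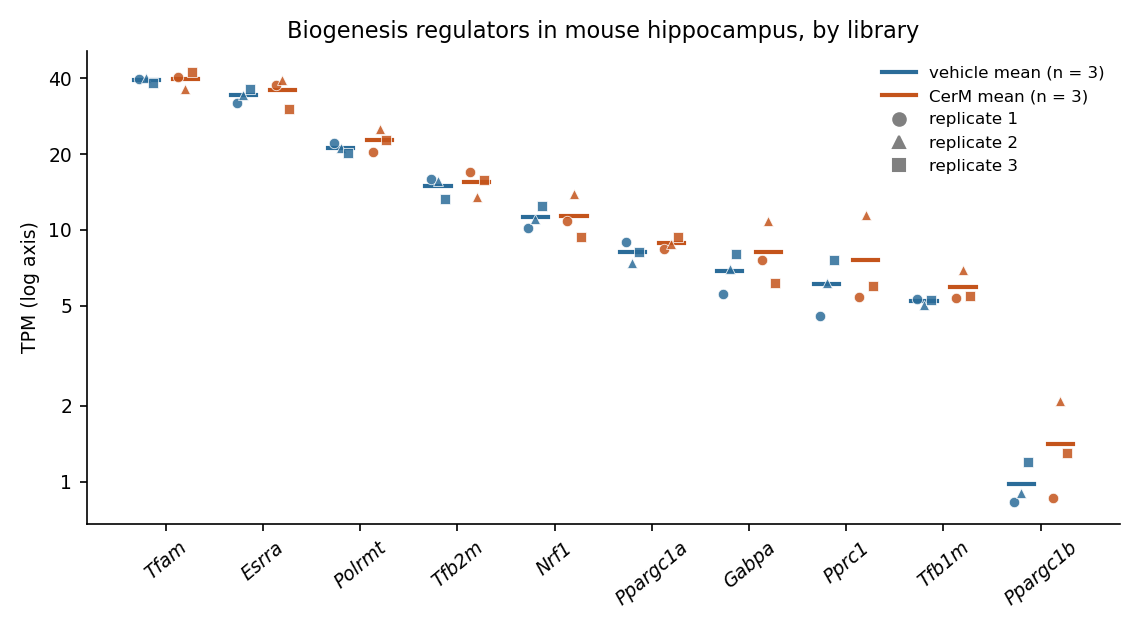
TPM (log axis) of the 10 regulators in each library, ordered by mean level. Symbols mark replicates 1 to 3 of vehicle (blue) and CerM (orange), and bars mark group means. The groups overlap for all genes except Tfb1m, and the triangle of CerM replicate 2 is the highest point for 7 genes.

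Libraries differed in composition before any regulator was compared. TPM totals were close to equal, 993379 to 995403, and the depth behind them is unknown. The 12 marker genes of hippocampal neurons summed to between 590 and 661 TPM in CerM and between 440 and 676 in vehicle, with none at 0 in any library. Vehicle replicate 1 had 290 TPM over 9 neocortex markers, where the other 5 libraries had 132 to 136. Lamp5 led that sum, at 150 TPM in vehicle replicate 1 and 41.0 to 50.7 elsewhere. Tle4 was not raised, at 17.0 TPM there and 16.9 to 19.8 elsewhere. Vehicle replicate 1 was the highest library for 7 of the 8 tested neocortex markers. CerM replicate 3 had 718 TPM over 10 adipocyte markers, led by Cfd, against 10.1 to 22.1 elsewhere. Choroid plexus markers, led by Ttr, were at 9388 and 11048 TPM in CerM replicates 1 and 3 and 15846 in vehicle replicate 3, while the remaining 3 libraries had 258 to 319. The sum over parvalbumin interneuron markers, where Gad1 was the most abundant, overlapped at 442 to 528 TPM in CerM and 453 to 528 in vehicle. Pvalb itself was at 139 TPM in vehicle replicate 1 and at 70.2 to 83.0 in the other 5 libraries. Vehicle replicate 1 was the highest library for 5 of these 10 markers, against 16.9% of all tested genes. The sum over microglial markers overlapped as well, at 389 to 460 against 402 to 430 TPM, as did the sums for astrocytes, oligodendrocytes and endothelial cells. Vehicle replicate 1 was lowest for all 10 oligodendrocyte markers and for 11 of 12 hippocampal ones. In whole tissue, fewer cells of a type and less RNA per cell cannot be told apart.

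None of the 10 regulators differed between CerM and vehicle by the test across all genes (limma on log2(TPM + 1), Benjamini-Hochberg adjustment). The test called 0 of 14916 genes at an adjusted p below 0.05, a background of 0.0%, and 402 genes had an unadjusted p below 0.05, none of them a regulator. All 10 log2 fold changes lay above 0 with TPM as deposited, but only 7 did after quantile normalization (Nrf1, Tfam and Tfb2m turned), 8 after median-ratio scaling (Nrf1 and Tfam turned) and 7 without CerM replicate 2 (Pprc1, Nrf1 and Esrra turned). Their median was 0.106, beside 0.034 over all tested genes, of which 58.8% lay above 0. Without CerM replicate 2 the median of the regulators was 0.038 and that of all genes -0.023, and with vehicle replicate 1 and CerM replicate 3 both left out they were 0.132 and 0.021. The 95% confidence interval lay within a 2-fold difference of TPM + 1 for all 10 genes and within a 1.5-fold difference for 7, the exceptions being Ppargc1b, Pprc1 and Gabpa. For genes of low level this bounds TPM itself less tightly.

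**Figure D2:**
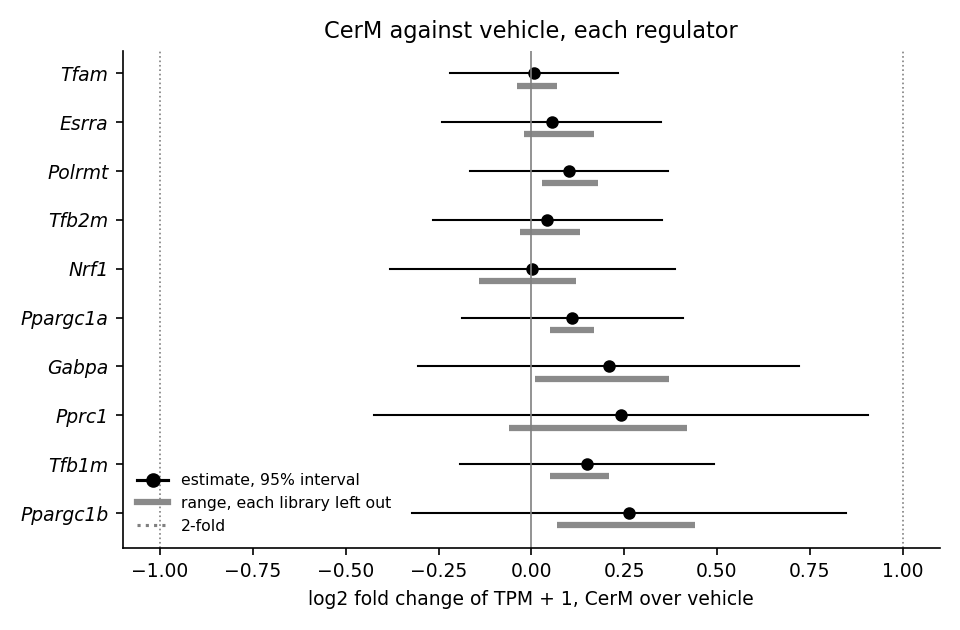
Log2 fold change of TPM + 1, CerM over vehicle, for each regulator with its 95% confidence interval (black) and the range of estimates with each library left out in turn (grey). All intervals include 0 and stay inside the dotted lines at a 2-fold difference, and the widest belong to Pprc1 and Ppargc1b.

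Among the coactivators, Ppargc1a, the best known driver of mitochondrial biogenesis, had the steadiest level. It was at 8.43, 8.81 and 9.41 TPM in CerM replicates 1 to 3 and at 8.98, 7.39 and 8.14 in the vehicle replicates. The groups overlapped, since vehicle replicate 1 lay above 2 of the CerM libraries. Its log2 fold change was 0.11 ± 0.13 (SE), with a 95% confidence interval of -0.19 to 0.41, or 0.878 to 1.33 as a fold of TPM + 1. Its highest library, CerM replicate 3, was also the one with adipocyte transcripts, with Cfd at 409 TPM, Fabp4 at 138, Adipoq at 61.9 and Ucp1 at 0. Their part in the Ppargc1a value was not tested. The fold change was 0.07 without CerM replicate 3, and over all libraries left out in turn it ran from 0.05 without vehicle replicate 2 to 0.17 without vehicle replicate 1.

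Ppargc1b, which encodes PGC-1 beta, a related coactivator that shares many of the same partners, was the least abundant regulator. It stood at 0.86, 2.09 and 1.30 TPM in CerM and 0.83, 0.90 and 1.20 in vehicle. CerM replicate 2 stood apart from all other libraries, and CerM replicate 1 lay within the vehicle range. Its log2 fold change was 0.26 (-0.32 to 0.85), the largest of the 10, and it ran from 0.07 without CerM replicate 2 to 0.44 without CerM replicate 1. Ppargc1a exceeded Ppargc1b by 4.22 to 9.80 times in the CerM libraries and by 6.78 to 10.8 times in the vehicle libraries, so alpha was the dominant form in all 6.

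Pprc1 encodes PRC, the member of the family known for rapid induction by growth signals. It had the largest ratio of highest to lowest library of the 10 genes, at 5.43, 11.5 and 6.01 TPM in CerM and 4.54, 6.16 and 7.57 in vehicle. CerM replicate 2 was again the highest, at 2.52 times the lowest library, and CerM replicates 1 and 3 lay inside the vehicle range. The log2 fold change was 0.24 (-0.42 to 0.91), and it was -0.06 without CerM replicate 2, 0.07 without vehicle replicate 1 and 0.42 without CerM replicate 1. Pprc1 exceeded Ppargc1a in that library only, with a ratio of 1.30 against 0.51 to 0.93 in the others. Exons of Pprc1 share 177 bases with the antisense gene Ldb1. Ldb1 stood at 81.4 TPM on average, with its own highest value, 93.8, in CerM replicate 2, and reads of the pair cannot be told apart without strand.

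Of the nuclear factors, Nrf1, which binds the palindromic element shown above, had means that nearly coincided. It was at 10.9, 13.9 and 9.35 TPM in CerM and 10.2, 11.0 and 12.5 in vehicle. The CerM libraries held both the highest and the lowest value. Between groups the log2 fold change was 0.00 (-0.38 to 0.39), and it ran from -0.14 without CerM replicate 2 to 0.12 without CerM replicate 3.

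Gabpa encodes the DNA-binding subunit of GABP. It stood at 7.58, 10.9 and 6.13 TPM in CerM and 5.55, 6.98 and 8.01 in vehicle. CerM replicate 2 was the highest and vehicle replicate 1, the library with the largest sum of neocortex markers, the lowest, while the other 4 libraries interleaved. The log2 fold change was 0.21 (-0.30 to 0.72), and it was 0.01 without CerM replicate 2, 0.08 without vehicle replicate 1 and 0.37 without CerM replicate 3. Gabpa shares 175 exon bases with the antisense gene Atp5j, a subunit of ATP synthase with a mean of 304 TPM, so some Gabpa reads may be Atp5j reads if counting ignored strand. Atp5j was lowest, at 248 TPM, in CerM replicate 2 and highest, at 351 TPM, in vehicle replicate 1, and its part in the Gabpa values was not tested. The partner subunits of GABP had Gabpb1 at 11.0 ± 0.50 (SD, n = 3) in CerM and 11.7 ± 1.54 in vehicle, in TPM, and Gabpb2 at 3.85 ± 1.70 against 3.09 ± 0.71. Gabpb1 exceeded Gabpa in 5 of the 6 libraries, by 1.52 to 1.98 times, and was 0.98 times Gabpa in CerM replicate 2.

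Esrra encodes ERR alpha, an orphan nuclear receptor that depends on PGC-1 for its activity. Levels were 37.7, 39.5 and 30.2 TPM in CerM and 32.0, 34.5 and 36.3 in vehicle. The first 2 CerM libraries lay above all vehicle libraries and the third below all of them. Esrra had a log2 fold change of 0.05 (-0.24 to 0.35), and it ran from -0.02 without CerM replicate 2 to 0.17 without CerM replicate 3. Trmt112, which shares 73 exon bases with Esrra on the opposite strand, averaged 47.8 TPM, so reads of that stretch cannot be assigned without strand. Among its relatives, Esrrg was at 4.50 ± 0.44 against 4.87 ± 1.02 TPM and Esrrb at 0.95 ± 0.15 against 1.04 ± 0.54, so alpha was the most abundant of the 3 receptors.

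Tfam, whose protein coats mitochondrial DNA, varied least of the 10. It stood at 40.5, 36.4 and 42.3 TPM in CerM and 39.8, 40.3 and 38.3 in vehicle. The vehicle libraries lay within the range of the CerM libraries, and CerM replicate 2 was the lowest of all 6. Its log2 fold change was 0.01 (-0.22 to 0.23), which corresponds to 0.86 to 1.18 as a fold of TPM + 1. This was the narrowest interval among the regulators. With each library left out the value ran from -0.04 without CerM replicate 3 to 0.07 without CerM replicate 2.

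The paralogs Tfb1m and Tfb2m descend from an RNA methyltransferase. TFB1M modifies the small ribosomal RNA of mitochondria, while TFB2M serves as the initiation factor of transcription. Tfb1m was at 5.39, 6.95 and 5.46 TPM in CerM and 5.31, 5.05 and 5.29 in vehicle. All CerM libraries lay above all vehicle libraries, but the gap between the groups was that between 5.39 and 5.31 TPM, and most of the difference in means came from CerM replicate 2. Groups that did not overlap with CerM higher were found in 3.26% of tested genes, and this was 1 of the 10 regulators. A two-sided exact permutation test gave p = 0.1, its lower limit with 3 libraries a group. The log2 fold change was 0.15 (-0.19 to 0.49), and it ran from 0.05 without CerM replicate 2 to 0.21 without CerM replicate 1. Of 3 annotated Tfb1m transcripts, 1 holds a stretch of at least 200 bases that matches 126 other genes at 90% identity or more, and an exon shares 142 bases with the antisense gene Tiam2, so the share of reads that is Tfb1m's own is uncertain.

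Tfb2m stood at 17.0, 13.6 and 15.8 TPM in CerM and 15.9, 15.7 and 13.3 in vehicle. Vehicle replicate 3 was the lowest and CerM replicate 2 the second lowest, and the groups overlapped. Tfb2m had a log2 fold change of 0.04 (-0.27 to 0.35). Sequence shared with 2 other genes makes the Tfb2m value uncertain. Gm1818 matched 1187 bases at 99.3% identity and was listed at 0 in all libraries, and 1500011B03Rik matched 223 bases at 90.6% identity and averaged 141 TPM. With each library left out the fold change ran from -0.03 without vehicle replicate 3 to 0.13 without CerM replicate 2. The ratio of Tfb2m to Tfb1m was 3.16, 1.95 and 2.89 in CerM and 2.99, 3.10 and 2.51 in vehicle. CerM replicate 2 thus had the lowest ratio, with the other 5 libraries between 2.51 and 3.16.

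Polrmt, the polymerase gene, was at 20.4, 25.2 and 22.9 TPM in CerM and 22.1, 21.2 and 20.2 in vehicle. CerM replicate 1 lay inside the vehicle range and CerM replicates 2 and 3 above it. Its log2 fold change was 0.10 (-0.17 to 0.37), and it ran from 0.03 without CerM replicate 2 to 0.18 without CerM replicate 1. Tfam exceeded Polrmt by 1.80 to 1.90 times in the vehicle libraries and by 1.99, 1.44 and 1.85 times in the CerM libraries, with the lowest ratio in CerM replicate 2.

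CerM replicate 2 stood apart for most of the regulators. That library held the highest value for 7 of the 10 (Ppargc1b, Pprc1, Nrf1, Gabpa, Esrra, Tfb1m and Polrmt). It was also the highest library for 41.1% of all tested genes. Relative to its own mean over the 6 libraries, Pprc1 was 0.71 higher there on the log2(TPM + 1) scale, Ppargc1b 0.52, Gabpa 0.50, Nrf1 0.29 and Tfb1m 0.28, beside a median of 0.12 over all tested genes. Tfam and Tfb2m went the other way in the same library, at -0.12 and -0.15. The same library had the lowest share of TPM in genes of mitochondrial DNA, 10.5% against 11.5% to 15.9% elsewhere. The part of that share in these library values was not tested. With those genes removed and TPM rescaled, all 10 log2 fold changes of the regulators lay above 0. Their median was then 0.121, beside 0.049 over all tested genes. Vehicle replicate 1 was the lowest library for Pprc1, Ppargc1b and Gabpa, and for 32.8% of all tested genes.

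**Figure D3:**
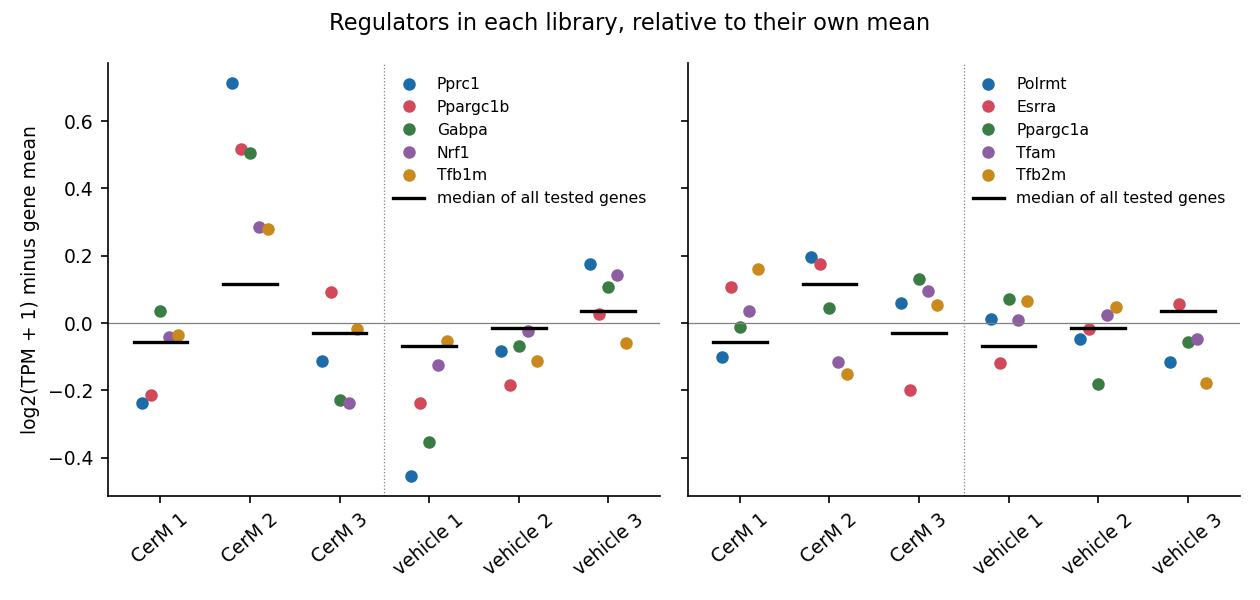
Log2(TPM + 1) of each regulator minus its own mean over the 6 libraries, in 2 panels of 5 genes, with black bars at the median of all tested genes in each library. In CerM 2 the genes of the left panel lie 0.28 to 0.71 above their means, while Tfam and Tfb2m in the right panel lie below theirs.

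Likeness between profiles was measured as the mean absolute difference of log2(TPM + 1), each gene centred on its own mean over the 6 libraries. Within the set the closest pairs were Esrra with Nrf1 at 0.066, Tfam with Tfb2m at 0.067 and Polrmt with Tfb1m at 0.07. The most unlike pair was Tfb2m with Pprc1, at 0.406. Among tested genes whose name is no clone or prediction, those closest to Ppargc1a were Zfp763, Cdc123 and Rsl1, at 0.027, 0.027 and 0.029.

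Cofactors and other transcription factors that work with the regulators mostly lay above 0. Of 28 listed genes 25 were tested, none was called, and 18 lay above 0, where 58.8% of all tested genes did. Their median log2 fold change was 0.099, beside 0.034 over all tested genes. The number above 0 was 17 under quantile and median-ratio scaling and 15 of 26 without CerM replicate 2. CerM replicate 2 was the highest library for 15 of the 25, against 41.1% of all tested genes. Ncor1, a corepressor that opposes ERR-driven genes, had the smallest p of the list at 72.2 ± 7.51 TPM in CerM and 62.6 ± 3.73 in vehicle, a log2 fold change of 0.20 ± 0.11 (SE), or 0.12 without CerM replicate 2. Nfe2l2, the antioxidant regulator whose protein is also called NRF2 but is unrelated to GABP, stood at 13.3 ± 1.29 against 10.8 ± 2.90 TPM (0.30 ± 0.18), and it was 0.20 without vehicle replicate 1 and 0.49 without vehicle replicate 3. The most abundant factors were the thyroid hormone receptor gene Thra at 800 ± 141 against 823 ± 57.2 TPM and Mef2d, an activity-dependent neuronal factor, at 90.2 ± 15.2 against 84.0 ± 13.9.

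Genes listed as upstream sensors and modifiers of PGC-1 alpha were split evenly. Of 20 tested genes, 10 lay above 0 and none was called (median -0.021, and 16 of 20 below 0 without CerM replicate 2, 6 of 20 with vehicle replicate 1 and CerM replicate 3 both left out). Sirt1, the deacetylase that activates PGC-1 alpha, was at 4.88, 4.91 and 4.93 TPM in CerM and 3.52, 4.63 and 3.51 in vehicle. Its groups did not overlap, as in 3.26% of tested genes with CerM higher, and its log2 fold change was 0.28 ± 0.15 (SE). The catalytic subunits of AMPK, the energy-sensing kinase, had overlapping groups, with Prkaa1 at 12.5 ± 0.38 against 11.5 ± 1.31 TPM and Prkaa2 at 6.10 ± 0.57 against 6.09 ± 0.44. Its gamma subunits, which bind AMP, lay on opposite sides. Prkag1 was at 51.7, 57.9 and 52.4 TPM in CerM and 62.0, 60.8 and 61.9 in vehicle (log2 fold change -0.19 ± 0.09), and Prkag2 at 81.1, 92.0 and 83.3 against 71.0, 79.2 and 74.6 (0.19 ± 0.09). Neither pair of groups overlapped, and neither gene passed the adjustment (limma adjusted p = 0.989 for both). In the whole list the groups did not overlap for 2 of 20 genes with CerM higher (Sirt1 and Prkag2), against 3.26% of all tested genes, and for 2 with CerM lower, against 4.04%. The latter were Prkag1 and the calcium-dependent kinase gene Camk4, at 17.8, 19.0 and 18.1 TPM in CerM and 26.6, 19.2 and 19.9 in vehicle, which was singled out after its values were seen. The most abundant of the list were the arginine methyltransferase gene Prmt1 at 200 ± 20.6 against 219 ± 3.53 TPM and the mitochondrial deacetylase gene Sirt3, whose groups overlapped.

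Genes that replicate, transcribe and process mitochondrial DNA alongside Tfam and Polrmt showed no common direction. Of 30 tested genes 13 lay above 0 and 17 below, with a median of -0.003, and none was called. Polg, the replicative polymerase, was at 25.1, 38.9 and 24.9 TPM in CerM and 23.9, 23.2 and 25.2 in vehicle, a log2 fold change of 0.26 ± 0.18 (SE) that was 0.05 without CerM replicate 2. The helicase gene Twnk was at 10.2 ± 1.30 against 8.84 ± 0.51 TPM (0.18 ± 0.13), again with its highest value in that library and 0.09 without it.

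Genes of the MTERF family encode proteins that bind mitochondrial nucleic acids, and Mterf2 and Mterf1a had the smallest p of that list. Mterf2 was at 13.2, 10.6 and 13.5 TPM in CerM and 14.4, 15.5 and 17.8 in vehicle (log2 fold change -0.33 ± 0.14), and Mterf1a at 2.83, 3.34 and 2.86 against 4.31, 3.84 and 3.90 (-0.32 ± 0.15). Groups did not overlap for either, nor for Mterf3 at 15.8, 16.1 and 15.9 against 17.9, 20.8 and 16.4 TPM, a gene singled out after its values were seen. The other 2 family members in the list, Mterf4 and Mterf1b, had overlapping groups. Mterf1a and Mterf1b are close paralogs, so how reads were divided between them is uncertain. Non-overlap with CerM lower was found in 4.04% of tested genes and in 3 of the 30 listed, all of them MTERF genes. Mterf2 had an unadjusted p of 0.0476 and, like the rest, a limma adjusted p of 0.989. The single-stranded DNA-binding gene Ssbp1 at 22.6 ± 5.02 against 22.3 ± 2.69 TPM and the elongation factor gene Tefm at 7.10 ± 1.88 against 7.44 ± 0.89 had nearly equal means. The most abundant were the ribosomal protein gene Mrps12 at 83.1 ± 10.1 against 85.9 ± 5.04 TPM and the RNase P subunit gene Hsd17b10 at 77.7 ± 2.72 against 75.5 ± 7.47.

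Nuclear genes that textbooks give as targets of NRF1, GABP or ERR alpha mostly lay below 0. Of 34 tested genes 28 lay below 0 (median -0.093) and none was called, while 58.8% of all tested genes lay above 0 (median 0.034). The number below 0 was 25 under quantile normalization and 29 under median-ratio scaling. Relative to the median of all tested genes, the list median was -0.127, but -0.046 under quantile normalization. With each library left out, the number below 0 ran from 24 of 35 without CerM replicate 3 to 32 of 35 without vehicle replicate 1. With all libraries kept, the groups did not overlap in 11 of the 34 with CerM lower, against 4.04% of all tested genes, and in 1 with CerM higher, against 3.26%. The list was chosen with results of these libraries in view, so its count is not independent evidence of a direction. The most abundant, the complex IV subunit gene Cox4i1, was at 1656, 1860 and 1651 TPM in CerM and 2067, 1886 and 1941 in vehicle (-0.19 ± 0.09 SE). The ATP synthase gene Atp5b, was at 1178 ± 58.7 against 1206 ± 32.8 TPM with groups that overlapped, and cytochrome c (Cycs), the classical NRF1 target, at 81.4 ± 8.79 against 90.7 ± 7.93 (-0.16 ± 0.11, and -0.08 without CerM replicate 2 or -0.09 without vehicle replicate 1).

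Unadjusted limma p was below 0.05 for 4 of these 34 targets, against 402 of all 14916 tested genes. The limit on how the list was chosen holds for this count too. Of the 4 genes, Cox6c and Acadm were singled out after their values were seen. The complex IV genes Cox7c at 712 ± 4.96 against 822 ± 36.4 TPM (-0.21 ± 0.07) and Cox6c at 922 ± 83.1 against 1151 ± 142 (-0.32 ± 0.12) were lower in all CerM libraries. So was the complex II gene Sdhb, at 193 ± 18.9 against 232 ± 11.2 TPM (-0.26 ± 0.10). Acadm, a fatty acid oxidation gene and a classical target of ERR alpha, was higher in all CerM libraries, at 51.7, 39.8 and 41.0 TPM against 30.5, 34.6 and 37.6 in vehicle (0.35 ± 0.14). All 4 had a limma adjusted p of 0.989.

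**Figure D4:**
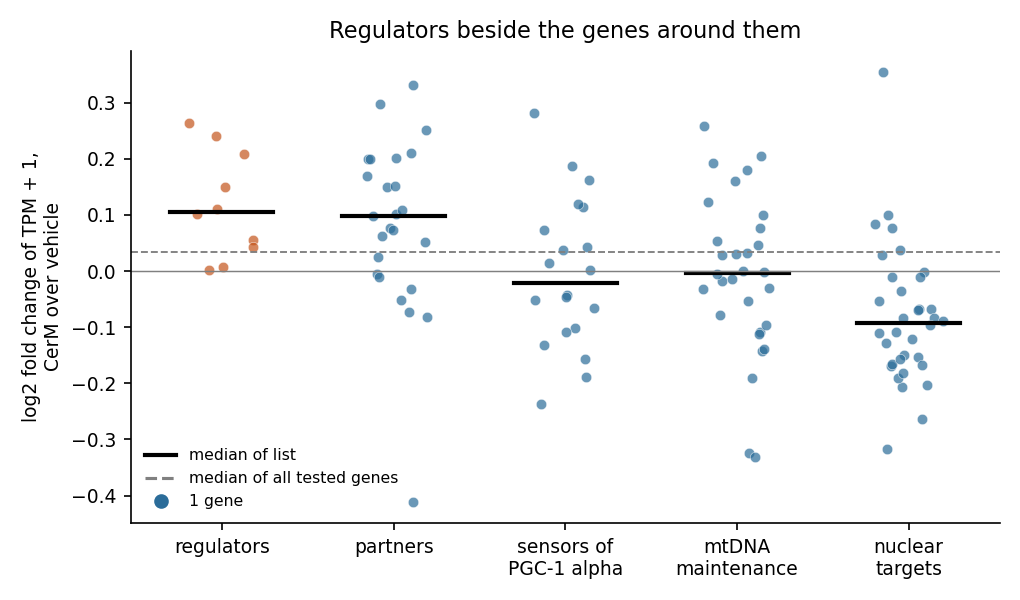
Log2 fold change of TPM + 1, CerM over vehicle, for each tested gene of 5 lists, with list medians in black and the median of all tested genes as a dashed line. The 10 regulators lie between 0.00 and 0.26 while 28 of the 34 nuclear targets lie below 0, and no gene in the plot passed the adjusted test.

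The products of the mitochondrial transcription machinery gave a direction that depended on single libraries. Of 13 protein-coding genes of mitochondrial DNA 11 were tested, 8 lay below 0 and none was called (median -0.069). Without CerM replicate 2 only 1 lay below 0, and without vehicle replicate 1 the number was 5. CerM replicate 2 was the lowest library for all 11. The gene listed highest, mt-Atp8, had 52348 ± 14309 TPM in CerM and 43092 ± 4676 in vehicle, followed by mt-Co1 at 28791 ± 4470 against 29032 ± 2914. mt-Co2 was at 388 ± 130 against 449 ± 23.4 TPM. mt-Atp6, which shares its transcript with mt-Atp8, was listed at 0 in all libraries, and mt-Co3 at 0.13 to 0.36 TPM. Reads of the genes of mitochondrial DNA were thus unevenly assigned, and single values are uncertain.

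The promoter letters searched above also sort the 11094 tested genes that had a promoter entry, and no gene in these sets was called. Of 768 tested genes with an NRF1 core in a promoter window, 56.0% lay above 0 with a median log2 fold change of 0.02, against 59.4% and 0.036 for the 10326 without one. Of 2050 genes with an ETS core 52.7% lay above 0 (median 0.008), against 60.7% and 0.041 for the 9044 without. Of 443 genes with an ERR core 57.8% lay above 0 (median 0.041), against 59.3% and 0.034 for the 10651 without. The ETS set thus had the lowest share of the 3. It includes Gabpa, Tfam and Polrmt, which themselves lay above 0, at 0.21, 0.01 and 0.10. These sets were compared only with TPM as deposited and all 6 libraries kept. The median of all tested genes was itself -0.023 without CerM replicate 2.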

How the data were processed

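Per the labels' protocols, hippocampal RNA was taken up in TRIzol, cleared of DNA with DNase I and sequenced as Illumina TruSeq libraries. The submitters' processing notes list HISAT2, StringTie, RSEM and GRCm39 without roles or versions; annotation and strand setting are not given in the sources used here. The deposited values are TPM per gene, which keep no depth, so no count test or counting interval was used. Groups came from the sample titles. Genes with a mean of at least 1 TPM were tested on the log2(TPM + 1) scale by two-sided limma-trend (limma 3.58.1, R 4.3.3), with Benjamini-Hochberg adjustment over 14916 genes and a threshold of 0.05. The fit was also run on simulated data, with changes larger than those of the regulators and given only to genes above a minimum level. That run does not measure the power of the fit for the regulators. The regulators, gene lists and tests were chosen with earlier results of these data known. Named genes were the 10 regulators, fixed partners, and from each pathway list the 2 with the smallest p and the 2 with the highest TPM; a few other genes are named for context or after their values were seen. Likeness to Ppargc1a used genes whose name is no clone or prediction. Near-identical copies were sought with blastn 2.17.0 (90% identity, 200 bases), and overlapping exons in GENCODE M21, by gene name. Alternatives changed the pseudocount, minimum, scaling, variance trend, replicate block and libraries. Python 3.11.15 with pandas 2.3.3, numpy 2.4.6, scipy 1.17.1 and matplotlib 3.10.9 was used.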

Additional observations from a re-analysis of the deposited data

How the results depend on the processing

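No regulator was called under any of the 16 alternatives, of which leaving out vehicle replicate 1 and CerM replicate 3 together was chosen after seeing the data. Over all genes 0 were called with all 6 libraries kept, 1 to 8 with each library left out (8 without CerM replicate 3), and 1 with both of those left out. The labels do not say whether equal replicate numbers pair the samples. Correlations of deviations from the group mean were 0.008, 0.196 and 0.222 between equal numbers. They were -0.207 between CerM replicate 2 and vehicle replicate 3, and -0.204 between CerM replicate 3 and vehicle replicate 2. With the number as a replicate block 0 genes were called, and 496 had an unadjusted limma p below 0.05, against 402 without it. Of the 6 libraries 5 correlated best with their own number, the exception being vehicle replicate 1, which did so with CerM replicate 2 (0.065). Under quantile normalization log2 fold changes turned to -0.061 for Nrf1, -0.0102 for Tfam and -0.0029 for Tfb2m, and under median-ratio scaling to -0.025 for Nrf1 and -0.02 for Tfam. Tfam was at -0.0301 with both libraries left out. With each library left out, ranges were -0.056 to 0.42 for Pprc1, -0.14 to 0.12 for Nrf1, -0.019 to 0.17 for Esrra, -0.0371 to 0.0684 for Tfam and -0.035 to 0.13 for Tfb2m. Ppargc1b could not be tested at a minimum of 5 TPM. The cause of these turns was not tested. Precision is limited by 3 libraries a group.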
